A study of Homo sapiens with 4 samples.

Results

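Transcripts of 40 genes of the BMP and TGF-beta pathways were followed in cells sorted from cardiac differentiations of human embryonic stem cells (hESCs). The 40 genes were taken from a list of pathway members drawn up by name, out of the 60234 genes in the count table. They comprise 14 ligands, 5 type I and 4 type II receptors, the co-receptor TGFBR3, 5 antagonists, 7 SMADs and the 4 ID genes. The cells came from the NKX2.5 (eGFP/w) hESC line, a reporter line in which GFP is driven from the locus of the cardiac transcription factor NKX2-5, so that GFP marks cells that have turned this gene on. Spun embryoid bodies of this line received a cytokine cocktail and were then given either 1 µM retinoic acid (RA) from day 4 to day 7 or, as control (CTR), the solvent DMSO over the same days. At day 31 GFP-positive cells were separated from GFP-negative cells in both cultures and RNA of each fraction was sequenced, which gave 4 libraries with 1 library per condition. The RA and CTR cultures were separate differentiations of 1 line, so that culture and treatment cannot be told apart, and with 1 library per condition no test between conditions was made.

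BMPs, TGF-betas and activins are secreted dimers of one protein family. They assemble type I and type II receptor kinases at the cell surface, the type I receptor phosphorylates receptor-regulated SMADs, and these enter the nucleus together with SMAD4. BMP receptors act mainly through SMAD1 and SMAD5, whereas TGF-beta, activin and nodal receptors act mainly through SMAD2 and SMAD3. Secreted antagonists such as noggin, chordin and gremlin bind the ligands, the inhibitory SMADs 6 and 7 act inside the cell, and ID1 to ID4 are classical targets of BMP signals. In the heart, BMPs act in the specification of cardiac mesoderm and in chamber and valve formation, and TGF-betas act in valve formation and on fibroblasts.

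The libraries held 28125727 reads assigned to genes (RA GFP-positive), 28643091 (CTR GFP-positive), 26222787 (RA GFP-negative) and 4371101 (CTR GFP-negative). The others were thus 6.0 to 6.55 times as deep as the CTR GFP-negative library. Levels are given as CPM, the library-scaled read count, after TMM scaling, which sets library sizes so that most genes are level. Intervals in brackets are 95% intervals that cover counting error only, since PCR copies and differences between cultures are not in them. NKX2-5 stood at 463 CPM in RA and 593 CPM in CTR GFP-positive cells against 9.74 and 14.5 CPM in the GFP-negative cells, and all 8 cardiomyocyte markers were at least 2-fold higher in the GFP-positive cells of both cultures. Fibroblast and stroma markers moved with RA as well. The sum of 8 of them (such as COL1A1 and DCN) was 15173 CPM in RA and 3967 CPM in CTR GFP-positive cells, and 61658 and 32119 CPM in the corresponding GFP-negative cells. All 8 were at least 2-fold higher with RA in GFP-positive cells, and 5 of 8 in GFP-negative cells. In these bulk libraries a change in the number of cells of a type and a change in RNA per cell cannot be told apart.

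**Figure D1:**
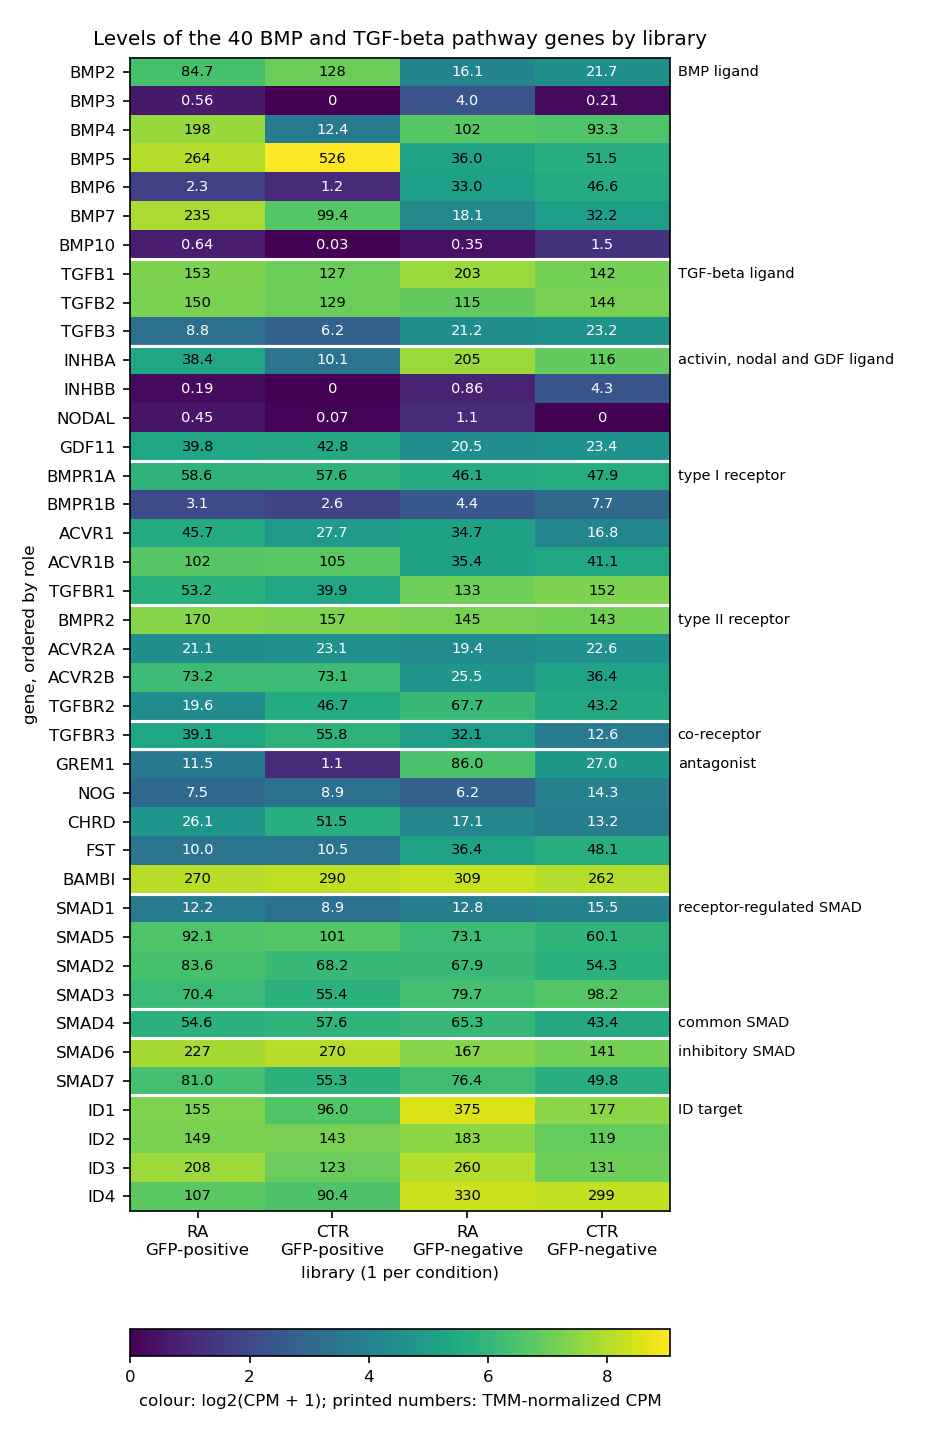
Heat map of the 40 genes (rows, ordered by role) in the 4 libraries (columns). Colour shows log2(CPM + 1) and the printed number is the CPM. The brightest field is BMP5 in CTR GFP-positive cells at 526 CPM, the SMAD rows change by less than 2-fold across the columns, and BMP3, INHBB and NODAL each have 1 library with 0 reads.

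Of the 40 genes, 38 had a mean of at least 1 CPM over the 4 libraries. BMP10 and NODAL did not. At least 10 CPM in all 4 libraries was reached by 30 genes, and 5 genes (BMP3, BMP10, BMPR1B, INHBB and NODAL) stayed under 10 CPM in all of them. A difference was called when log2(CPM + 1) differed by at least 1, that is 2-fold on this scale, which understates the change of genes near 0. With RA, GFP-positive cells had 4 of the 40 genes higher (BMP4, BMP7, GREM1 and INHBA) and 1 lower (TGFBR2). Of all 17199 genes with a mean of at least 1 CPM, 4.91% were called higher and 1.82% lower in this comparison. The median difference of the 40 genes was 0.23 on the log2 scale, beside 0.020 for all genes. Medians over the 40 genes and counts of their signs or orders include BMP10 and NODAL, which lie outside the 17199. Scaling moved the split of calls, from 80.0% higher among the called genes to 57.1% with library size alone or upper-quartile factors, where BMP5 and CHRD also passed 2-fold as lower. With DESeq2 size factors and without the most abundant genes BMP5 passed as well, and the share was 66.7%.

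In GFP-negative cells 5 genes were higher with RA (ACVR1, BMP3, GREM1, ID1 and TGFBR3) and 2 were lower (INHBB and NOG). BMP3 and INHBB passed the filter on the mean only through the library where they were high. These were RA GFP-negative cells for BMP3 (4.01 CPM) and CTR GFP-negative cells for INHBB (4.26 CPM). Their calls, here and between the fractions, thus depend on the filter and were lost with filters at 10 CPM. The shares over all genes were 7.34% higher and 5.35% lower, and the median difference of the 40 was 0.078 beside 0.066 for all genes. Here ACVR1 and ID1 lay close to the threshold and were under 2-fold with library size alone, with upper-quartile factors and without the most abundant genes, which brought the share of higher calls from 71.4% to 60.0%. Of the 40 genes 1, GREM1, was called higher in both fractions, beside 1.62% of all genes, 0 were called lower in both, beside 0.291% of all genes, and 0 were called in opposite directions, beside 0.343%. Whatever their size, the differences in the fractions had opposite signs for 19 of the 40 genes and for 42.7% of all genes.

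More of the genes were called between the sorted fractions than between the treatments, as was so over all genes. GFP-positive CTR cells had 6 genes higher (ACVR1B, BMP2, BMP5, BMP7, CHRD and TGFBR3) and 10 lower (BMP4, BMP6, BMPR1B, FST, GREM1, ID4, INHBA, INHBB, TGFB3 and TGFBR1) than GFP-negative CTR cells, where the shares over all genes were 13.3% and 15.1%. In the RA culture 5 were higher (ACVR1B, ACVR2B, BMP2, BMP5 and BMP7) and 10 lower (BMP3, BMP6, FST, GREM1, ID1, ID4, INHBA, TGFB3, TGFBR1 and TGFBR2), with 10.2% and 13.4% over all genes. Both cultures shared 4 of the higher genes, BMP2, BMP5, BMP7 and ACVR1B, and 7 of the lower ones, BMP6, FST, GREM1, ID4, INHBA, TGFB3 and TGFBR1. Over all genes 6.54% were higher and 9.12% lower in both cultures. Each of these comparisons shares libraries with the RA comparisons. Another 18 genes were called in none of the 4 comparisons, where the share over all genes was 60.6%. The 18 included all 7 SMADs, and BMP10 and NODAL were among them because their mean level was too low.

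On the log2(CPM + 1) scale, BMP4 had the largest RA difference of the BMP ligands, 3.89 in GFP-positive cells. BMP4, a ligand used to induce mesoderm and cardiac fate, lies on chromosome 14 (hg19, 54416454 to 54425479, minus strand). Its level was 198 CPM [192 to 203] in RA GFP-positive cells, 12.4 [11.1 to 13.7] in CTR GFP-positive cells, 102 [98.5 to 106] in RA GFP-negative cells and 93.3 [84.7 to 102] in CTR GFP-negative cells. The CTR GFP-positive library therefore stood alone at the low end and the RA GFP-positive library alone at the high end. The RA over CTR ratio was 16.0 [14.3 to 17.8] in GFP-positive and 1.1 [0.992 to 1.22] in GFP-negative cells. In the CTR culture GFP-positive cells held 7.53-fold [6.53 to 8.69] less BMP4 than GFP-negative ones, whereas in the RA culture they held 1.93-fold [1.84 to 2.02] more, a log2 difference of 0.94 that was just short of the threshold and reached 1.01 with upper-quartile factors. Of the 8 stroma markers, 7 were at least 2-fold lower in RA GFP-positive than RA GFP-negative cells (COL1A1 at 3879 against 22021 CPM), and PDGFRA was higher (295 against 138.5 CPM). Of 4 smooth muscle markers, only MYH11 had the order of BMP4, with 115 and 3.35 CPM in RA and CTR GFP-positive and 28.4 and 23.2 CPM in the GFP-negative cells. The sum of all 4 was 1057 and 476 CPM in GFP-positive and 1387 and 731 CPM in GFP-negative cells, and the part of such cells in the BMP4 values was not tested. In the current annotation an unnamed antisense transcript covers 16.3% of the BMP4 exon bases. It was not among the counted genes and the counts did not use strand, so any reads of it there cannot be told apart from BMP4 reads.

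The 250 bases before the most upstream of 3 annotated BMP4 starts are shown because BMP4 had the largest RA difference of the 40 genes on the log2(CPM + 1) scale (RefSeq, GRCh38.p14, chr14:53955051-53955300, minus strand, read 5′ to 3′). Capitals mark GTCT or its reverse complement AGAC, the short SMAD-binding letters, and GGCGCC, a GC-rich SMAD1/5 motif.
BMP4: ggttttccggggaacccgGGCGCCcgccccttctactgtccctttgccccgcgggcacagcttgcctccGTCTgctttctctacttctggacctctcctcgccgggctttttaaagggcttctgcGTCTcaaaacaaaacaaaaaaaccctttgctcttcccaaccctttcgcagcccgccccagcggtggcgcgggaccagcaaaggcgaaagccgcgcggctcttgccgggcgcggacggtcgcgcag
This stretch held 2 GTCT or AGAC matches and 1 GGCGCC match, on either strand.

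BMP7, BMP5 and BMP2 were the other BMPs abundant in GFP-positive cells. BMP7, a ligand expressed in the embryonic myocardium, stood at 235 CPM in RA and 99.4 CPM in CTR GFP-positive cells, and at 18.1 and 32.2 CPM in RA and CTR GFP-negative cells. Both GFP-positive libraries exceeded both GFP-negative ones. With RA the level was 2.37-fold [2.26 to 2.47] higher in GFP-positive cells and 1.77-fold [1.47 to 2.14] lower in GFP-negative cells, so that the ratio of GFP-positive to GFP-negative cells was 3.09 [2.62 to 3.67] in CTR and 13.0 [11.8 to 14.3] with RA. Summed cardiomyocyte markers (8 genes) were at 396 CPM in RA and 835 CPM in CTR GFP-negative cells. The part of cardiomyocytes in the BMP7 values was not tested. BMP5, another myocardial BMP, was at 264 CPM in RA and 526 CPM in CTR GFP-positive cells, against 36.0 and 51.5 CPM in the GFP-negative cells. It was thus lower with RA in both fractions. In GFP-positive cells the CTR level was 1.99-fold [1.94 to 2.05] that with RA, a log2 difference of -0.99 that fell just short of the threshold, and in GFP-negative cells it was 1.43-fold [1.24 to 1.65]. The GFP-positive difference passed the threshold with library size alone, DESeq2 size factors, upper-quartile factors and without the most abundant genes. BMP5 in GFP-positive cells exceeded GFP-negative cells 10.2-fold [8.99 to 11.6] in CTR and 7.32-fold [6.83 to 7.85] with RA.

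BMP2, which acts in atrioventricular canal and valve development, followed BMP5 rather than BMP4. Its levels were 84.7 CPM (RA) and 128 CPM (CTR) in GFP-positive cells and 16.1 and 21.7 CPM in GFP-negative cells. The CTR library was again the higher of each pair, 1.52-fold [1.44 to 1.60] in GFP-positive and 1.35-fold [1.08 to 1.68] in GFP-negative cells, and neither difference reached 2-fold. BMP6 showed the reverse order of fractions. BMP6, a ligand known from endothelium and iron regulation, was at 2.28 and 1.15 CPM in RA and CTR GFP-positive cells and at 33.0 and 46.6 CPM in the GFP-negative cells, a 40.5-fold [28.0 to 60.3] lower level in GFP-positive cells of the CTR culture and 14.5-fold [11.2 to 19.1] lower with RA. Markers of several cell types were also higher in the GFP-negative cells of both cultures. Summed epicardial markers (5 genes) were at 342 and 574 CPM in RA and CTR GFP-negative cells against 66.4 and 57.3 CPM in the GFP-positive cells. Summed endothelial markers (5 genes) were at 262 and 280.5 CPM against 16.3 and 16.9 CPM. Summed neural, neural crest and eye markers (6 genes) were at 107 and 263 CPM against 51.8 and 13.8 CPM. Of these 6, 5 were at least 2-fold lower in GFP-positive cells in CTR and 3 with RA. Stroma markers (8 genes) were at 61658 and 32119 CPM against 15173 and 3967 CPM. Gut and liver endoderm markers (7 genes) were at 769 and 111 CPM against 71.3 and 26.7 CPM. The part of these cell types in the BMP6 values was not tested.

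BMP3 and BMP10 were scarce. BMP3, an atypical member that opposes other BMPs, had 15 reads in RA GFP-positive, 0 in CTR GFP-positive, 103 in RA GFP-negative and 1 in CTR GFP-negative cells. Nearly all of its reads were thus in the RA culture. In GFP-negative cells the ratio was 18.8 with an interval from 3.31 to 752, and thinning all libraries to the smallest one or adding 5 CPM took it under the threshold. In GFP-positive cells it was at least 5.36-fold higher with RA against 3 reads as the limit of the CTR library, and the counting interval of the ratio began at 3.84. BMP10, a BMP of the trabecular and atrial myocardium, had 17 reads in RA and 1 in CTR GFP-positive cells and 9 and 7 in the GFP-negative libraries, or between 0.03 and 1.49 CPM. Its RA over CTR ratio of 18.2 in GFP-positive cells had an interval from 2.85 to 761, and with a mean under 1 CPM it entered no call.

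**Figure D2:**
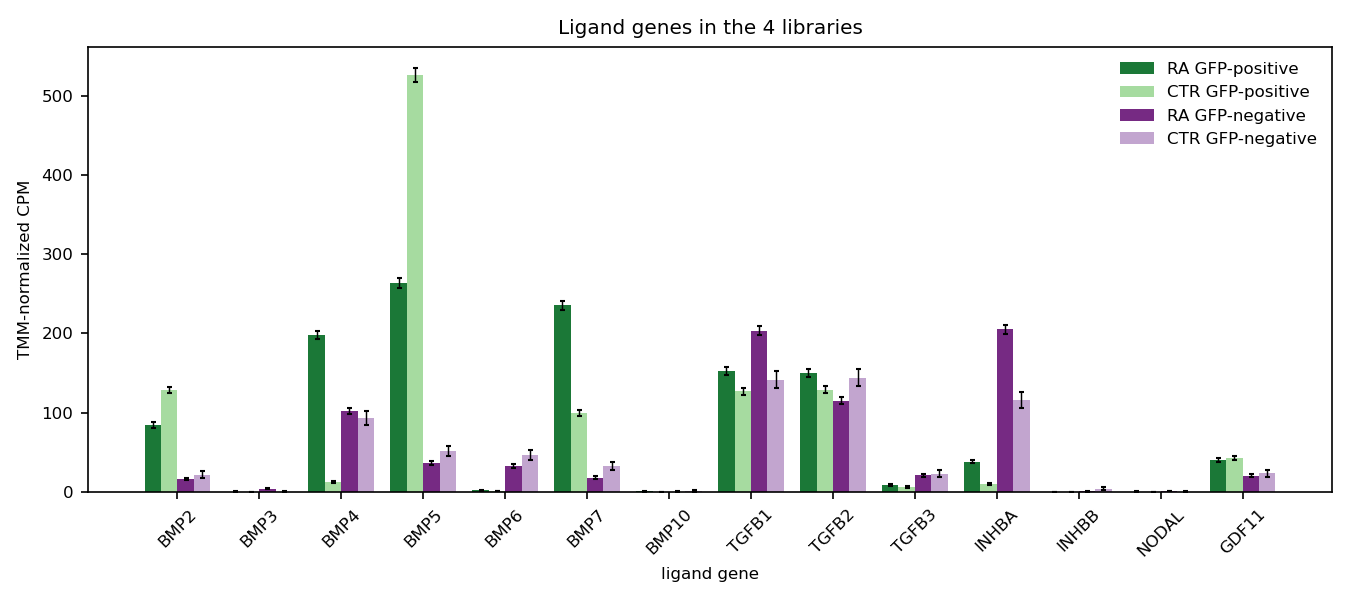
Level of the 14 ligand genes in CPM (vertical axis, linear from 0) in each library, with exact Poisson 95% intervals as error bars. BMP4 in CTR GFP-positive cells is at 12.4 CPM while the other libraries stand at 93.3 to 198 CPM, and BMP5 in CTR GFP-positive cells reaches 526 CPM.

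Summed over 7 BMP ligands, the 2 GFP-positive libraries held close to the same number of reads, 785 CPM [774 to 796] with RA and 768 CPM [757 to 778] in CTR. GFP-negative cells held 210.0 CPM [204 to 216] and 247 CPM [233 to 262]. The makeup differed more than the sum. Per kb of exon, which allows genes to be set side by side, BMP5 made up 69.2% of the BMP ligand total in CTR GFP-positive cells and 33.5% with RA. BMP4 went the other way, from 2.09% in CTR to 32.2% with RA, and BMP7 from 9.58% to 21.9%. BMP2 made up 18.9% in CTR and 12% with RA. In GFP-negative cells BMP4 was the largest share in both cultures, at 55.6% with RA and 44.5% in CTR, followed by BMP5 (15.3% and 19.2%) and BMP6 (14.7% and 18.2%). BMP6 contributed 0.304% and 0.159% in the RA and CTR GFP-positive cells.

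**Figure D3:**
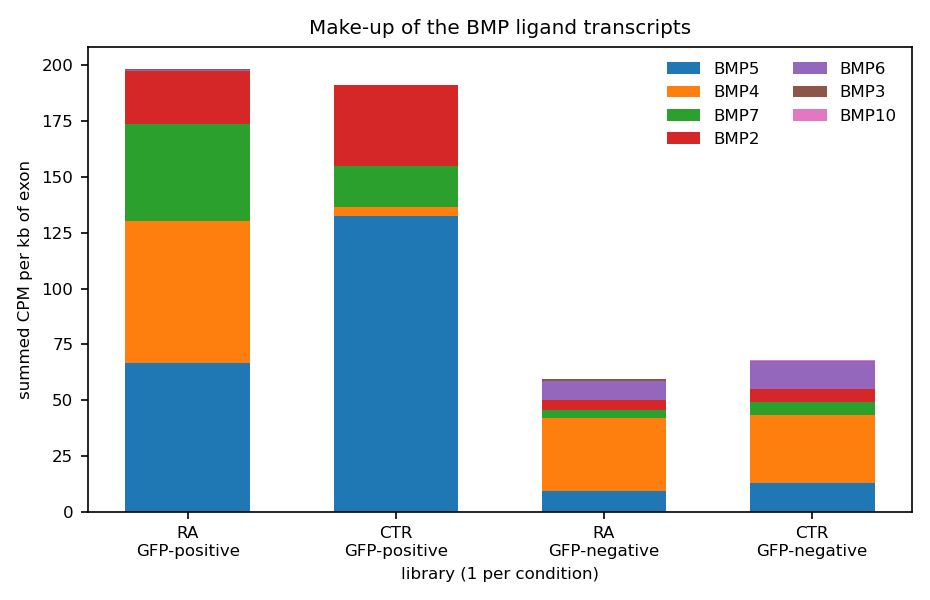
Stacked bars of the BMP ligand transcripts per kb of exon (vertical axis, summed CPM per kb, from 0) in each library. The GFP-positive bars are of nearly equal height, 198 with RA and 191 in CTR, but BMP5 fills 69.2% of the CTR bar and 33.5% of the RA bar.

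TGFB1 and TGFB2 differed by less than 2-fold across the libraries. TGFB1, a main inducer of fibroblast activation, was at 153 and 127 CPM in RA and CTR GFP-positive cells and at 203 and 142 CPM in RA and CTR GFP-negative cells. Its RA over CTR ratios were 1.2 [1.15 to 1.26] and 1.43 [1.32 to 1.56]. TGFB2, which is needed for valve and outflow tract development, ranged from 115 CPM (RA GFP-negative) to 150.1 CPM (RA GFP-positive). An antisense gene with counts of its own, TGFB2-AS1, overlaps 11.6% of its exon bases, and reads within both would have been left out as ambiguous. A further transcript on the same strand covers 22.7% and had no separate count. TGFB3 was lower and differed between fractions, with 8.82 and 6.21 CPM in RA and CTR GFP-positive cells and 21.2 and 23.2 CPM in the GFP-negative cells. It was 3.74-fold [2.92 to 4.77] lower in GFP-positive cells in CTR and 2.41-fold [2.06 to 2.82] lower with RA, the latter under the threshold after thinning or with 5 CPM added. The RA over CTR ratio of TGFB3 was 1.42 [1.16 to 1.74] in GFP-positive and 0.915 [0.744 to 1.13] in GFP-negative cells.

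INHBA, which encodes the activin A subunit, had 38.4 CPM in RA and 10.1 CPM in CTR GFP-positive cells, and 205 and 116 CPM in RA and CTR GFP-negative cells. It was lowest in CTR GFP-positive cells and highest in RA GFP-negative cells. RA was higher 3.81-fold [3.34 to 4.35] in GFP-positive and 1.78-fold [1.63 to 1.94] in GFP-negative cells, and only the first reached the threshold. The level in RA GFP-positive cells was 18.7% of that in RA GFP-negative cells. Across the 8 stroma markers the same percentage ran from 7.42% (LUM) to 38.8% (POSTN) in 7 and was 213% for PDGFRA, and the part of stromal cells in the INHBA difference was not tested. INHBB, the subunit of activin B, had 5, 0, 22 and 20 reads in RA GFP-positive, CTR GFP-positive, RA GFP-negative and CTR GFP-negative cells. After scaling the last library was highest, at 4.26 CPM against 0.86 CPM in RA GFP-negative cells, a ratio of 4.97 [2.57 to 9.54] that was under the threshold with 5 CPM added. NODAL, which patterns the early embryo, had 12, 2, 29 and 0 reads in the same order, and antisense exons cover 33.5% of its bases. GDF11, a ligand related to myostatin, was at 39.8 and 42.8 CPM in GFP-positive and at 20.5 and 23.4 CPM in GFP-negative cells. It differed little with RA, with ratios of 0.930 [0.856 to 1.01] and 0.877 [0.713 to 1.09], and was 1.83-fold [1.5 to 2.24] and 1.94-fold [1.75 to 2.16] higher in GFP-positive cells of CTR and RA.

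The receptors as a group were close to level. Type I and type II receptors summed to 546 CPM in RA GFP-positive, 532 in CTR GFP-positive, 511 in RA GFP-negative and 510.5 in CTR GFP-negative cells. BMPR2, the type II receptor for BMPs, held the largest part in 3 libraries and had 169.7, 157, 145 and 143 CPM in that order. BMPR1A, the BMP type I receptor needed in early heart formation, ranged from 46.1 to 58.6 CPM, and ACVR2A, a type II receptor for activins and BMPs, from 19.4 to 23.1 CPM. For BMPR2, BMPR1A and ACVR2A the highest library was 1.19 to 1.27 times the lowest. BMPR1B, the second BMP type I receptor, was scarce, with 3.14 and 2.62 CPM in RA and CTR GFP-positive and 4.44 and 7.67 CPM in the GFP-negative cells. It was called lower in GFP-positive cells of the CTR culture, 2.93-fold [1.91 to 4.41], but not after thinning or with 5 CPM added.

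The type I receptors for activin and TGF-beta differed between fractions in opposite ways. ACVR1B, the activin and nodal type I receptor, was at 102 and 105 CPM in RA and CTR GFP-positive cells and at 35.4 and 41.1 CPM in the GFP-negative cells, a difference of 2.87-fold [2.66 to 3.10] with RA and 2.56-fold [2.21 to 2.97] in CTR. TGFBR1, the TGF-beta type I receptor, was at 53.2 and 39.9 CPM in GFP-positive and at 133 and 152 CPM in GFP-negative cells, 2.49-fold [2.34 to 2.65] and 3.81-fold [3.47 to 4.19] lower in GFP-positive cells of RA and CTR. GFP-positive cells thus had more ACVR1B and less TGFBR1 than GFP-negative cells of either culture. ACVR2B, a type II receptor for activins, followed ACVR1B with 73.2, 73.1, 25.5 and 36.4 CPM in RA GFP-positive, CTR GFP-positive, RA GFP-negative and CTR GFP-negative cells. Its fraction ratio was 2.87 [2.62 to 3.14] with RA and 2.01 [1.72 to 2.36] in CTR, the latter just short of the threshold on the log2(CPM + 1) scale at 0.99. With RA in GFP-positive cells ACVR1B and ACVR2B had ratios of 0.968 [0.919 to 1.02] and 1.00 [0.942 to 1.07].

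ACVR1 (ALK2), a BMP type I receptor, was higher with RA in both fractions, with 45.7 against 27.7 CPM in GFP-positive and 34.7 against 16.8 CPM in GFP-negative cells. Both RA libraries were above both CTR libraries. The ratios were 1.65 [1.51 to 1.80] and 2.06 [1.64 to 2.63], of which the second lay at the threshold, with log2 differences of 0.86 to 1.03 over the alternatives, and was also lost with DESeq2 size factors and with 5 CPM added. TGFBR2, the TGF-beta type II receptor, was the only one of the 40 genes called lower with RA in GFP-positive cells under TMM scaling. BMP5 joined it under the other scalings. Its levels were 19.6 CPM in RA and 46.7 CPM in CTR GFP-positive cells, and 67.7 and 43.2 CPM in RA and CTR GFP-negative cells. The RA GFP-positive library was lowest and the RA GFP-negative library highest, with the CTR libraries in between and close to each other. The RA over CTR ratio was 0.420 [0.379 to 0.465] in GFP-positive cells and 1.57 [1.35 to 1.82] in the GFP-negative fraction. TGFBR3 (betaglycan), a co-receptor that presents TGF-beta2, had 39.1 and 55.8 CPM in RA and CTR GFP-positive and 32.1 and 12.6 CPM in RA and CTR GFP-negative cells. Here the CTR GFP-negative library, with 59 reads, stood apart at the low end, and the RA over CTR ratios were 0.701 [0.648 to 0.758] in GFP-positive and 2.55 [1.96 to 3.38] in GFP-negative cells.

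**Figure D4:**
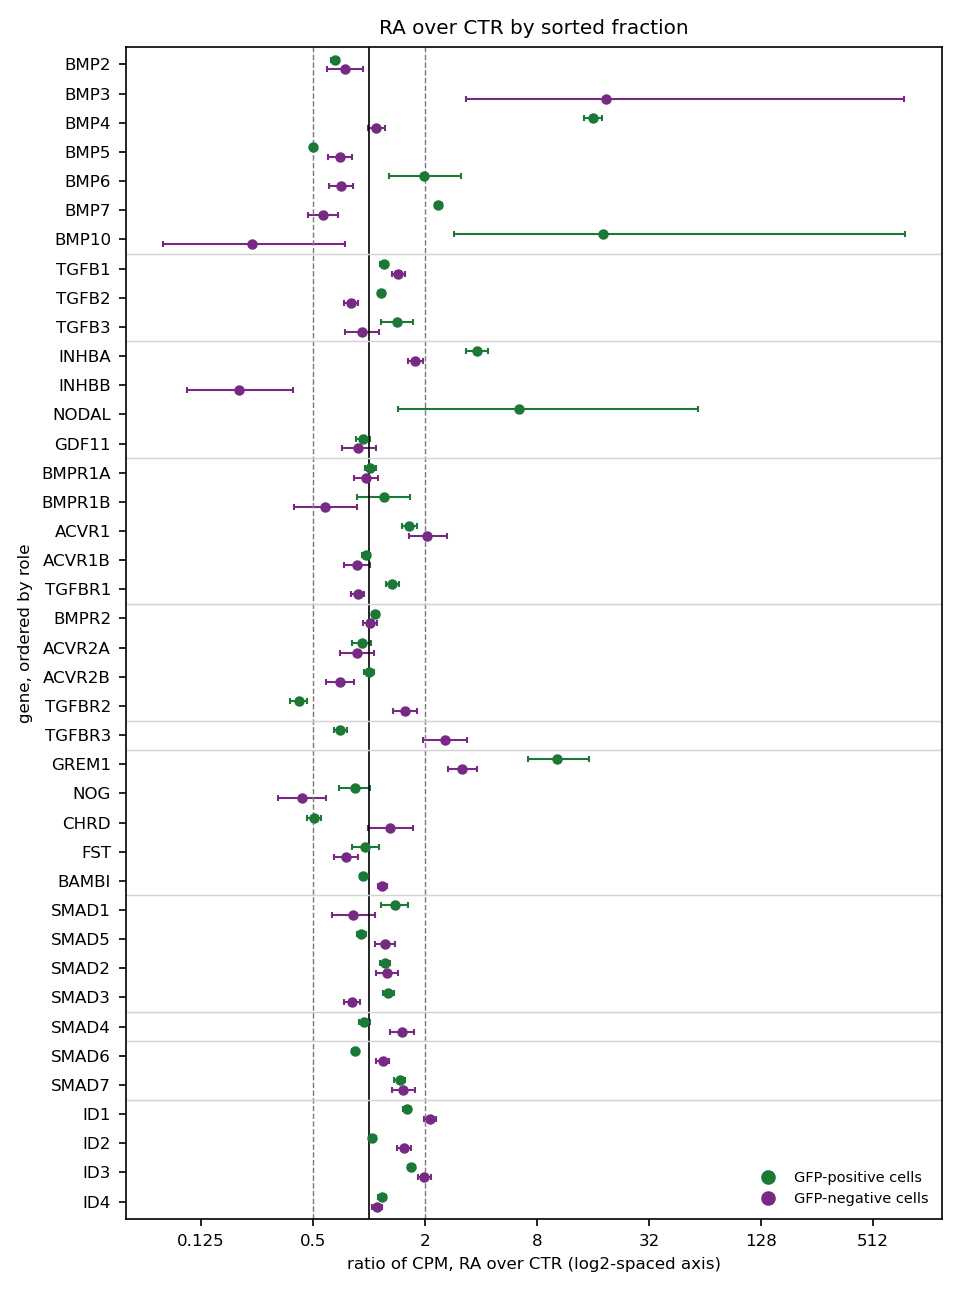
RA over CTR ratio of CPM for each gene (horizontal axis, log2-spaced) in GFP-positive and GFP-negative cells, with 95% counting intervals. Dashed lines stand at 2-fold, and 3 ratios that involve a library with 0 reads are not drawn. BMP4 lies at 16.0 in the GFP-positive fraction and at 1.1 in the GFP-negative one, and TGFBR2 and TGFBR3 lie on opposite sides of 1 in the 2 fractions.

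Among the antagonists GREM1 was called higher with RA in both fractions. GREM1, gremlin 1, binds BMP2, BMP4 and BMP7 outside the cell and had 11.5 CPM in RA and 1.12 CPM in CTR GFP-positive cells, and 86.0 and 27.0 CPM in RA and CTR GFP-negative cells. The CTR GFP-positive level rested on 32 reads, and the highest library was 77.0 times the lowest, the widest span of the genes with reads in all libraries. RA over CTR was 10.3 [7.15 to 15.3] in GFP-positive and 3.18 [2.66 to 3.83] in GFP-negative cells. The level in RA GFP-positive cells was 13.4% of that in RA GFP-negative cells, a percentage that ran from 7.42% to 38.8% in 7 of the 8 stroma markers and was 213% for PDGFRA. The part of stromal cells in the GREM1 difference was not tested. On the log2 scale the GFP-positive difference ran from 1.43 to 3.11 across the alternatives because the CTR level is near the pseudocount.

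The other secreted antagonists had other orders. CHRD, chordin, was highest in CTR GFP-positive cells, with 26.1 CPM (RA) and 51.5 CPM (CTR) in GFP-positive and 17.1 and 13.2 CPM in GFP-negative cells. CTR exceeded RA 1.97-fold [1.80 to 2.16] in GFP-positive cells, with a log2 difference of -0.96 just under the threshold, and the ratio of the fractions was 3.90 [3.03 to 5.12] in CTR and 1.52 [1.35 to 1.72] with RA. NOG, noggin, was between 6.2 and 14.3 CPM in the 4 libraries and highest in CTR GFP-negative cells, 2.30-fold [1.70 to 3.08] above RA GFP-negative cells. This call was lost with 5 CPM added. FST, follistatin, which binds activins, was at 10.0 and 10.5 CPM in RA and CTR GFP-positive and at 36.4 and 48.1 CPM in the GFP-negative cells. Follistatin was thus lower in GFP-positive cells of both cultures, 3.63-fold [3.16 to 4.17] with RA and 4.60-fold [3.85 to 5.48] in CTR, the same direction as INHBA. BAMBI, a membrane-bound receptor decoy without a kinase domain, ranged from 262 to 309 CPM and was among the 3 highest of the 40 genes per kb of exon in every library, at 122 to 144.5 CPM per kb.

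The SMADs differed by less than 2-fold. In the CTR culture the log2 differences of GFP-positive minus GFP-negative cells were 0.94 for SMAD6 and 0.74 for SMAD5. They were -0.75 for SMAD1 and -0.81 for SMAD3, and 0.15 to 0.40 for SMAD7, SMAD2 and SMAD4. All 7 passed the filter on the mean, and in each the highest library was under 2 times the lowest, as in 14 of the 40 genes and in 49.6% of all genes. The receptor-regulated SMADs 1, 2, 3 and 5 summed to 258 CPM in RA GFP-positive, 233 in CTR GFP-positive, 234 in RA GFP-negative and 228 in CTR GFP-negative cells. SMAD1 and SMAD3 were highest in CTR GFP-negative cells at 15.5 and 98.2 CPM, while SMAD5 was highest in CTR GFP-positive cells at 101 CPM and SMAD2 in RA GFP-positive cells at 83.6 CPM. SMAD4, the shared partner, ranged from 43.4 to 65.3 CPM. SMAD6, the inhibitory SMAD of the BMP branch, had 227 and 270.1 CPM in RA and CTR GFP-positive and 167 and 141 CPM in the GFP-negative cells, so that it was higher in GFP-positive cells, 1.92-fold [1.77 to 2.08] in CTR and 1.36-fold [1.31 to 1.41] with RA. SMAD7, which inhibits both branches, was higher with RA in both fractions, with 81.0 against 55.3 CPM in GFP-positive and 76.4 against 49.8 CPM in GFP-negative cells. Its RA over CTR ratios were 1.46 [1.37 to 1.56] and 1.53 [1.34 to 1.76], under the 2-fold threshold.

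**Figure D5:**
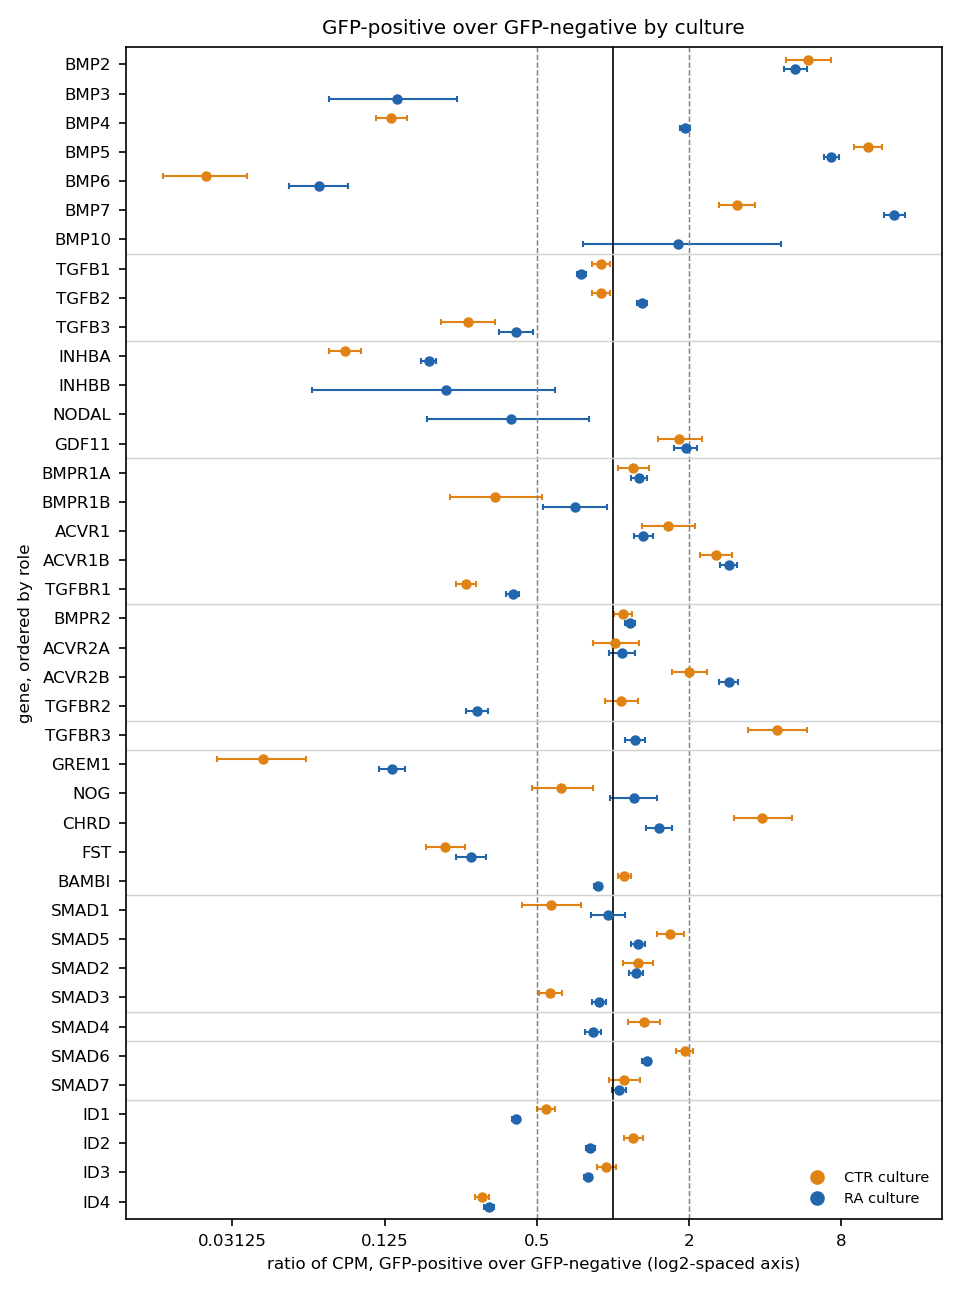
GFP-positive over GFP-negative ratio of CPM for each gene (horizontal axis, log2-spaced) in the CTR and RA cultures, with 95% counting intervals. Dashed lines stand at 2-fold, and 4 ratios with 0 reads in a library or under 10 reads in the pair are not drawn. BMP2, BMP5, BMP7 and ACVR1B lie right of 2 in both cultures, and BMP4 lies at 0.133 in CTR and 1.93 with RA.

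The ID genes encode helix-loop-helix proteins that hold back basic helix-loop-helix transcription factors. ID1 had 155 CPM in RA and 96 CPM in CTR GFP-positive cells, and 375 and 177 CPM in RA and CTR GFP-negative cells. It was highest in RA GFP-negative cells and lowest in CTR GFP-positive cells, and the RA over CTR ratio was 1.61 [1.53 to 1.69] in GFP-positive and 2.13 [1.98 to 2.28] in GFP-negative cells. ID3 had 208 against 123 CPM in GFP-positive and 260.1 against 131 CPM in GFP-negative cells, with ratios of 1.69 [1.62 to 1.76] and 1.99 [1.83 to 2.16]. For ID3 both RA libraries were above both CTR libraries, and the log2 difference in GFP-negative cells, 0.98, was just under the threshold. ID2 showed smaller ratios of 1.04 [0.995 to 1.09] and 1.54 [1.41 to 1.68]. ID4 differed between fractions instead, with 107 and 90.4 CPM in RA and CTR GFP-positive and 329.6 and 299 CPM in the GFP-negative cells, 3.09-fold [2.97 to 3.23] and 3.30-fold [3.09 to 3.53] lower in GFP-positive cells of RA and CTR. The sum of the ID genes was 618 and 453 CPM in RA and CTR GFP-positive cells and 1148 and 725 CPM in the GFP-negative cells. Per kb of exon ID1 led in both GFP-negative libraries, at 304 CPM per kb with RA and 143 in CTR, while ID3 led in RA GFP-positive cells at 139 and BAMBI in CTR GFP-positive cells at 136 CPM per kb.

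The 250 bases before the annotated starts of ID1 and ID3 are shown because these target genes were higher with RA in both fractions, at 1.61 to 2.13 times CTR (RefSeq, GRCh38.p14, ID1 on the plus strand at chr20:31605039-31605288 and ID3 on the minus strand at chr1:23559502-23559751, both read 5′ to 3′). Capitals again mark GTCT or AGAC, and GGCGCC where present.
ID1: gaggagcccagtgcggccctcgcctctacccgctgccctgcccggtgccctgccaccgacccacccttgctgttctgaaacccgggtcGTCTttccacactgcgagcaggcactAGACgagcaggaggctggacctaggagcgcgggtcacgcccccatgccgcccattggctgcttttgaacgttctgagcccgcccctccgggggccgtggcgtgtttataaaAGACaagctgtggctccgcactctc
ID3: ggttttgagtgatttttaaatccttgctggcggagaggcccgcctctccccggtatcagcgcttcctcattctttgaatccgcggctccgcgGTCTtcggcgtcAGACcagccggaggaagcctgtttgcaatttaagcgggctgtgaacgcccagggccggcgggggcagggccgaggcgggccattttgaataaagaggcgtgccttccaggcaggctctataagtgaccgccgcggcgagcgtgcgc
ID1 held 3 and ID3 held 2 GTCT or AGAC matches, with 0 GGCGCC matches in both. In windows from 250 bases before to 50 bases after a start, GTCT or AGAC occurred in 84.0% of all 35116 windows and in 79.7% of the 64 windows of 36 of the 40 genes. GGCGCC occurred in 19.2% of all windows and 25.0% of those of the pathway genes, and the palindrome GTCTAGAC, which contains both GTCT and AGAC, in 0.202% of all and in 1 window here, that of SMAD6. BMP2, BMP3, BMP7 and NOG had no window in the table. Such letters are common, and a match is a description of the sequence only.

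Where in the 4 libraries the 40 genes peaked was spread out. The counts given here include BMP10 and NODAL, whereas the shares are over genes with a mean of at least 1 CPM. The highest level lay in RA GFP-positive cells for 9 genes, in CTR GFP-positive cells for 9, in RA GFP-negative cells for 12 and in CTR GFP-negative cells for 10, beside 21.4%, 27.9%, 28.4% and 22.4% of all genes. Both GFP-positive libraries were above both GFP-negative ones in 13 genes and below them in 12, against 34.0% and 29.9% of all genes. Both RA libraries were above both CTR libraries in 8 genes, namely ACVR1, BMP3, BMP4, ID2, ID3, NODAL, SMAD7 and TGFB1, against 12.3% of all genes. The reverse held in 2, ACVR2A and NOG, against 9.14%.

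Further genes of the pathways, outside the 40, were counted by the same rule. Of 59 measured, 6 were higher and 4 lower with RA in GFP-positive cells, beside 4.91% and 1.82% of all genes. In GFP-negative cells 12 were higher and 2 lower, beside 7.34% and 5.35%. In GFP-positive cells those highest relative to CTR were TGFBI, a matrix protein named for its induction by TGF-beta, CHRDL1, a chordin-like BMP antagonist, and GDF6, a BMP-related ligand. TGFBI had 117 CPM in the RA and 13.5 CPM in the CTR library of this fraction, an 8.64-fold [7.77 to 9.63] difference, and at 548 and 136 CPM in the GFP-negative cells. CHRDL1 had 163 against 4 reads in GFP-positive cells, and GDF6 was at 23.5 against 5.79 CPM there. Those lower than in CTR included TBX20, a cardiac T-box factor (90.4 against 291 CPM), and BMPER, a secreted BMP modulator (31.7 against 74.8 CPM).

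In GFP-negative cells the further genes highest relative to CTR were 3 genes of the nodal branch. LEFTY1, a nodal inhibitor, had 373 reads against 7, TDGF1, the nodal co-receptor cripto, 195 against 3, and CER1, a secreted nodal and BMP antagonist, 96 against 0, which is at least 5.86-fold against a limit of 3 reads, with a counting interval that began at 4.67. The ratios were 9.75 [4.69 to 24.4] for LEFTY1 and 11.9 [4.01 to 58.2] for TDGF1. All 3 genes were rare in CTR GFP-negative cells, the shallowest library. Pluripotency markers (4 genes) summed to 48.1 CPM in RA and 14.1 CPM in CTR GFP-negative cells, with POU5F1 and NANOG at 0 in CTR GFP-negative cells, and gut and liver endoderm markers (7 genes) to 769 and 111 CPM, with FOXA2 at 0 in both CTR libraries. Of these 7 markers 5 were called higher and 1 lower with RA, AFP being at 465 CPM in the RA library and TTR, the lower one, at 11.7 against 73.0 CPM. The part of such cells in the LEFTY1, TDGF1, CER1, BMP3 and NODAL values was not tested. The 2 further genes called lower with RA in GFP-negative cells were TBX20, with 4.21 against 13.2 CPM, and SOST, which encodes the antagonist sclerostin, with 44 against 30 reads and 1.71 against 6.39 CPM. Of 8 cardiomyocyte markers, 4 were called lower and 0 higher in the same comparison. The part of cardiomyocytes in the TBX20 values was not tested.

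Between the fractions, 11 further genes were higher and 20 lower in GFP-positive cells of the CTR culture, beside 13.3% and 15.1% of all genes, and 5 and 21 with RA, beside 10.2% and 13.4%. TBX20 (291 against 13.2 CPM), TBX2 (218 against 34.9 CPM) and TBX3 (45.4 against 6.60 CPM), T-box genes regulated by BMPs in the heart, led the genes higher in CTR GFP-positive cells. GDF6, CHRDL1 and TGFBI were the lowest there relative to GFP-negative cells, with log2 differences of -4.01, -3.38 and -3.24. In the RA culture TBX20, INHA, the inhibin alpha subunit, and LEFTY2, a nodal inhibitor, stood highest in GFP-positive relative to GFP-negative cells, at log2 differences of 4.13, 1.48 and 1.22. LEFTY1, GDF7 and GDF6 stood lowest, at -3.06, -2.92 and -2.76. LEFTY2 stood at 120.7 and 90.0 CPM in RA and CTR GFP-positive and 51.2 and 33.0 CPM in the GFP-negative cells, so that LEFTY2 was higher in GFP-positive and LEFTY1 in GFP-negative cells of the RA culture.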

How the data were processed

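The submitters made strand-specific RNA libraries of each sorted fraction and aligned trimmed reads to a custom hg19 genome with GSNAP, handled alignments with SAMtools (0.1.18) and counted with HTSeq (0.6.1p1) without strand. The deposited table holds the authors' raw counts of uniquely mapped reads per Ensembl gene. The sources used here do not give the Ensembl release. Counting ran in the intersection-nonempty mode, which leaves out reads within exons of more than 1 counted gene and, without strand, assigns antisense reads of uncounted genes to the gene they overlap.

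From these counts TMM factors (edgeR 4.0.16, R 4.3.3) gave CPM. Exact 95% Poisson intervals and Clopper-Pearson intervals of ratios (Python 3.11.15) cover counting error only. Differences are of log2(CPM + 1), called at 1 or more among 17199 genes with a mean of at least 1 CPM. With 1 library per condition nothing was tested. Coordinates and exon lengths are from GENCODE v44 on GRCh37, with exons merged over all isoforms, which lowers values per kb of genes with long rare isoforms. Of 61 further pathway genes 59 were matched by symbol or RefSeq synonym. GDF2, GDF10 and the marker PECAM1 were not analysed here. All 40 genes are named, and of the further genes the 3 largest called differences in each direction per comparison, of which 1 is not reported here. The 40 genes and all lists were chosen with earlier results of these data known. Scripts were tested on simulated data. Scalings (library size, DESeq2 1.42.0, upper quartile, without abundant genes), pseudocounts, filters and thinning to 4371101 reads were tried as alternatives. Calls that also needed an interval leaving out 1 were added after seeing the data.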

Additional observations from a re-analysis of the deposited data

Results flagged for a closer look

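Differences with RA had opposite signs in the fractions for 19 of the 40 genes, BMP10 with its mean under 1 CPM among them, and for 42.7% of all genes. The 4 genes given here had opposite signs in matched comparisons, a difference of at least 2-fold in 1 of the comparisons and counting intervals that left out 1 in both. The difference between the comparisons was not tested for any of them, since each condition has 1 library. BMP4 in GFP-positive relative to GFP-negative cells had a log2 difference of -2.82 in the CTR culture and 0.94 in the RA culture. BMP7 differed with RA by 1.23 in GFP-positive and by -0.79 in GFP-negative cells. Summed cardiomyocyte markers were at 396 CPM in RA and 835 CPM in CTR GFP-negative cells, and the part of cardiomyocytes in the BMP7 values was not tested. TGFBR2 differed with RA by -1.21 in GFP-positive and by 0.64 in GFP-negative cells, and TGFBR3 by -0.50 and 1.29.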

How the results depend on the processing

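The labels carry no replicate numbers, and each comparison has 1 library on each side, so that no library could be left out. The fractions of a culture are paired by that culture, and a fit of treatment and fraction over the 4 libraries was not run. All 43 called differences of the 40 genes kept their direction under 7 alternatives of scaling, pseudocount and depth, and 34 stayed at least 2-fold under all of them. Of 1120 values, 94 moved beyond their counting interval. Of 160 differences, 11 changed sign under some of these alternatives, 0 of them called, and the largest of these was 0.20 in size on the log2 scale as reported. In GFP-positive cells with RA, the count of lower genes went from 1 to 3 with library size alone and upper-quartile factors, and to 2 with DESeq2 size factors and without mitochondrial and the 10 most abundant genes. BMP5 was added under each of these scalings, and CHRD with library size alone and upper-quartile factors. The median went from 0.23 to 0.11 with 5 CPM added and to 0.0858 with at least 10 CPM in either library. In GFP-negative cells with RA, 3 genes instead of 5 were higher with library size alone, upper-quartile factors, without the most abundant genes and with 5 CPM added. The count of lower genes there went from 2 to 0 with 5 CPM added and with a mean of at least 10 CPM, and to 1 with at least 10 CPM in either library. The median there went from 0.078 to -0.0558 with library size alone and to -0.0434 without the most abundant genes, while the median of all genes went from 0.066 to -0.058 and -0.046. The median of GFP-positive against GFP-negative cells with RA went from 0.011 to -0.0923 after thinning. Requiring an interval that leaves out 1 changed no call. Depth limits BMP3, BMP10, INHBB and NODAL most, since 3 reads are 0.639 CPM in CTR GFP-negative and 0.105 to 0.117 CPM in the other libraries.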
